A study of Mus musculus with 15 samples.

Results

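The comparison is of mouse lungs given silica with mouse lungs given saline. Its members are 7 of the 15 libraries of the series, chosen by their treatment label: the 3 silica libraries (silica 1, 2 and 7) and the 4 control libraries (control 1, 2, 4 and 7), numbered as in the labels. All mice were C57BL/J, with no other allele named. Control mice received physiological saline. Silica mice received silica in suspension, given as drops into the nose, and lung RNA was taken after 30 days. The labels do not say whether each library came from a separate animal, so the p-values below measure the spread between libraries, which may be technical. The other 8 libraries, given DMSO (dimethyl sulfoxide) with or without silica, stayed out of the fit and are used only at the end.

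As background, inhaled crystalline silica is taken up by alveolar macrophages, which cannot digest it. Particles that damage the lysosome set off the inflammasome and IL-1 release, and monocytes and neutrophils are drawn in by chemokines. In mice the response can go on to granulomas and fibrosis, in which fibroblasts lay down collagen.

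Estimated counts summed to between 17434649 and 20829960 in the 7 libraries, and 16467 of 57010 genes passed the filter on low counts. The tissue label was checked against marker genes. Sftpc, the surfactant protein of alveolar type 2 cells, lay between 13860 and 39510 counts scaled to library size (CPM) in the 7 libraries. The thymus genes Rag1 and Foxn1 reached at most 0.224 and 0 CPM. The extraction notes in the labels speak of retinas, while the tissue field gives lung. Libraries differed in the level of long genes. Genes over 3000 bases took 24.2% of counts in control 1 and 22.5% in silica 7, against 34.0% to 44.9% in the other 5 libraries.

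At 30 days, 40 genes had risen in the silica lungs and 1 had fallen, by edgeR's quasi-likelihood test with a Benjamini-Hochberg adjusted p under 0.05, here named called. These were 0.243% and 0.00607% of the genes tested. The higher genes included proteases, chemokines, lectin and Fc receptors, complement and acute-phase genes. Their log2 fold changes ran from 1.82 to 6.31 with a median of 2.90. In bulk RNA, more cells of a type and more RNA per cell cannot be told apart. At an unadjusted p under 0.05 there were 896 higher and 651 lower genes. Among all genes tested, 983 (5.97%) had every silica library above every control and 807 (4.9%) had every silica library below. The test favours genes whose groups do not overlap, so the gap between groups is a description. For the 40 genes the lowest silica library stood 2.51 to 20.7 times above the highest control.

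**Figure D1:**
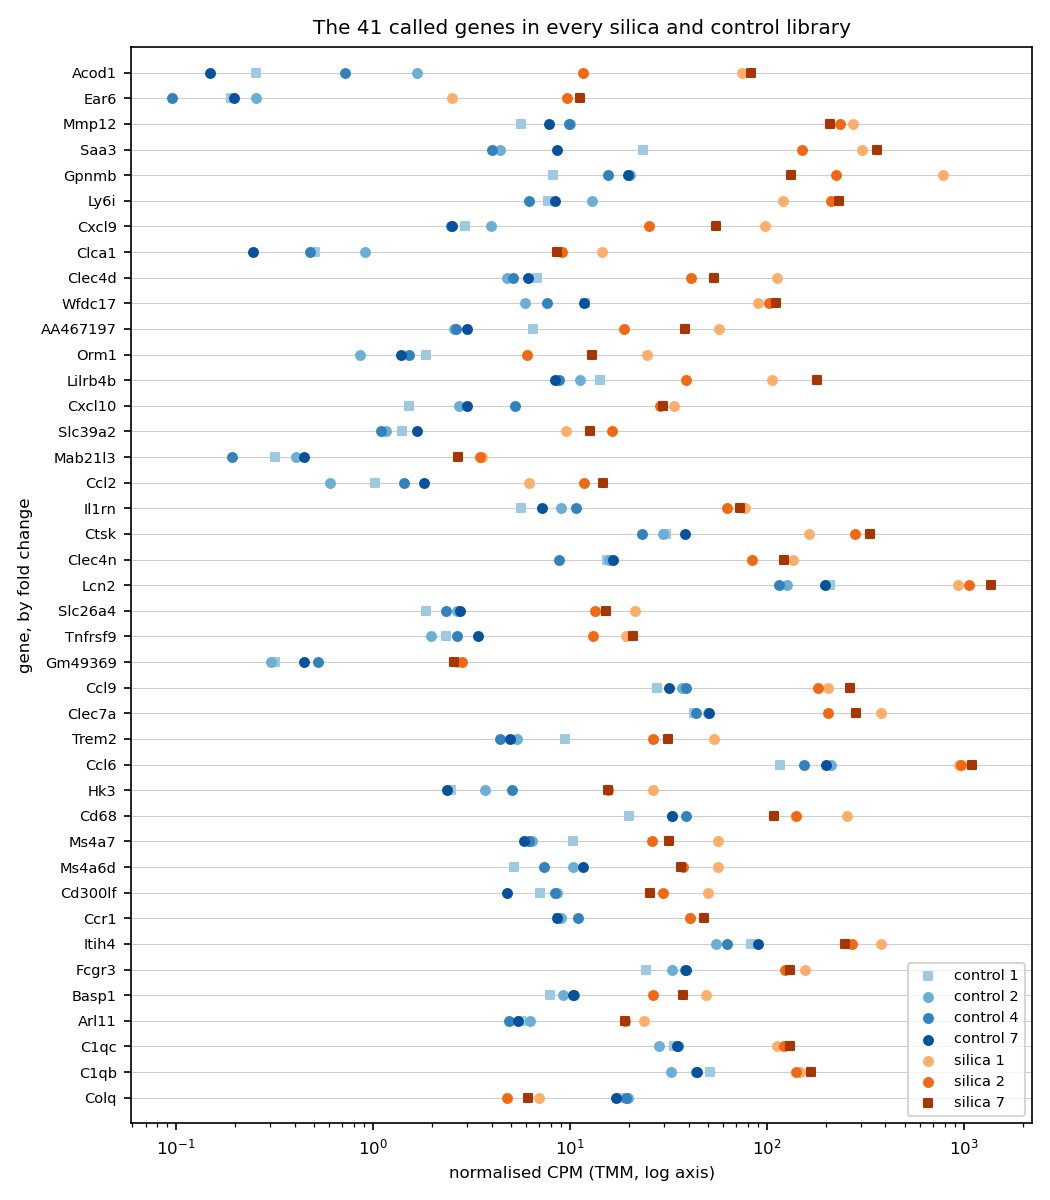
Normalised CPM (scaled by TMM, log axis) of the 41 called genes in each of the 7 libraries, blue for control and orange for silica, with squares for control 1 and silica 7. The orange points lie to the right of the blue points in 40 rows and to the left in the Colq row at the bottom, and Gpnmb spreads from 133 to 779 among the silica libraries.

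Macrophage proteases and lysosomal genes were among the genes that rose. Mmp12, the macrophage elastase, was at 5.67, 10.04, 9.85 and 7.84 normalised CPM in control 1, 2, 4 and 7 and at 274, 235 and 208 in silica 1, 2 and 7. All 3 silica libraries were high, none of them stood apart, and the groups did not overlap. Mmp12 rose by 4.83 ± 0.29 (log2, SE; edgeR adjusted p = 0.00117), the smallest p of all genes. Its exons overlap Mmp1b on the opposite strand, and the sources used here do not say whether counting used strand. Ctsk, a cathepsin that cuts collagen, was at 30.7, 29.7, 23.1 and 38.2 normalised CPM in the controls and at 163, 281 and 332 in silica 1, 2 and 7. The silica 1 library was the lowest of the 3 and still 4.28 times above the highest control. Ctsk rose by 3.09 ± 0.31 (edgeR adjusted p = 0.00973).

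Gpnmb, a lysosomal glycoprotein of phagocytes under lipid load, was at 8.16, 20.1, 15.6 and 19.6 normalised CPM in the controls and at 779, 225 and 133 in silica 1, 2 and 7. Silica 1 was far above the other two silica libraries, and the silica mean of 379 had an SD of 349.8 (n = 3). The change was 4.58 ± 0.64 (edgeR adjusted p = 0.0462). Trem2, the lipid-sensing receptor of the same cells, was at 9.43, 5.37, 4.40 and 4.98 normalised CPM in the controls and at 53.7, 26.4 and 31.4 in silica. Control 1 was the highest control for Trem2, and the gap to the lowest silica library was 2.80 times. Trem2 rose by 2.62 ± 0.37 (edgeR adjusted p = 0.0462). Cd68, the phagocyte lysosome marker, was at 19.9 to 38.9 normalised CPM in the controls and at 255, 140 and 109 in silica, again highest in silica 1. It rose by 2.43 ± 0.36 (edgeR adjusted p = 0.0476).

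The windows from 250 bases before to 50 after the RefSeq start of Mmp12 and Trem2 are shown because these 2 phagocyte genes rose together and both hold a PU.1 and a C/EBP core, the motifs of the main myeloid factors. They come from RefSeq on GRCm38.p6, 5′ to 3′ on the gene's strand, for Mmp12 chr9:7344147-7344446 (plus strand, the first of 2 listed starts) and for Trem2 chr17:48346151-48346450 (plus strand). Capitals mark motif letters read on either strand: PU.1 as GAGGAAG, C/EBP as TTGCNNAA and, in Trem2, AP-1 as TGANTCA.
Mmp12: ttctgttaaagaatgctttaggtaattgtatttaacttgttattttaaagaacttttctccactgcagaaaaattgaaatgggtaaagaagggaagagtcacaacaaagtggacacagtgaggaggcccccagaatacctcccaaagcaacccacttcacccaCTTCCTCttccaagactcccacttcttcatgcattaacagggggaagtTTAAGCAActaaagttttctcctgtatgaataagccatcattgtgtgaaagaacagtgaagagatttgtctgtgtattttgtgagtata
Trem2: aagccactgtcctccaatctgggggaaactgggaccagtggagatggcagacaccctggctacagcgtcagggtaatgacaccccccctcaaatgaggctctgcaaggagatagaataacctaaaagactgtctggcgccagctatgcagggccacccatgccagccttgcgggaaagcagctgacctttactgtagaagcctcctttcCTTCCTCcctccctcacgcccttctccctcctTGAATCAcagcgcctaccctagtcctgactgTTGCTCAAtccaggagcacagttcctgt
PU.1 letters start at base 164 in Mmp12 and 210 in Trem2, and C/EBP letters at base 212 and 273.

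Over the list of lipid-handling and Spp1 macrophage genes, 5 of 24 tested genes were called higher and 0 lower, against 0.243% of all genes called higher. Their median log2 change was 1.17, where the median of all genes was -0.004. Of the 24, 15 had every silica library above every control, against 5.97% of all genes. Members that missed the threshold include Spp1, the matrix phosphoprotein osteopontin, at 38.7 to 119 normalised CPM in the controls and 800, 432 and 335 in silica 1, 2 and 7 (log2 change 2.83 ± 0.45, edgeR adjusted p = 0.0608). Atp6v0d2, a proton pump subunit of lysosomes, had a log2 change of 1.94 ± 0.37 (edgeR adjusted p = 0.0978). Lpl and Fabp4, a lipase and a fatty acid carrier, had changes of -0.12 and 0.31. The list median per library was highest in silica 1 (1.63) and lay at 1.08 and 1.27 in silica 2 and 7, while the 4 controls lay between -0.12 and 0.11. Of the lysosome and cathepsin list, Ctsk alone of 26 genes was called (median 0.76). Of the 26, 18 had no overlap between groups with silica higher, against 5.97% of all genes. Examples are Ctss and Ctsd, cathepsins of antigen processing and protein breakdown, with changes of 2.26 and 1.63 (edgeR adjusted p = 0.177 and 0.207).

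Receptors for fungal sugars and for antibody rose together. Clec7a, the beta-glucan receptor Dectin-1, was at 42.5, 50.2, 43.9 and 50.6 normalised CPM in the controls and at 378, 205 and 282 in silica 1, 2 and 7. The 4 controls were close to each other and all below the lowest silica library, silica 2. Clec7a rose by 2.62 ± 0.26 (edgeR adjusted p = 0.00973). Clec4n, which encodes Dectin-2, was at 15.4, 15.8, 8.75 and 16.6 normalised CPM in the controls and at 136, 84.3 and 122 in silica. Control 4 stood apart below the other controls. Clec4n rose by 3.01 ± 0.30 (edgeR adjusted p = 0.00973). Clec4d, its neighbour on chromosome 6 at a distance of 15.1 kb, was at 4.76 to 6.82 normalised CPM in the controls and at 112, 41.4 and 53.7 in silica, with silica 1 the highest. It rose by 3.60 ± 0.38 (edgeR adjusted p = 0.0114). Fcgr3, an activating receptor for IgG, was at 24.4, 32.8, 38.4 and 38.7 normalised CPM in the controls and at 156, 123 and 130 in silica. The silica libraries were nearly level. Fcgr3 rose by 2.02 ± 0.24 (edgeR adjusted p = 0.0166).

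With Trem2, these made 5 called of 24 lectin, Fc and pattern receptors tested, against 0.243% of all genes. Of the 24, 17 were higher in every silica library than in any control, against 5.97%, and the list median was 1.41. The list's median per library was 1.54, 1.43 and 1.35 in silica 1, 2 and 7, so the 3 libraries were alike, and the controls lay between -0.16 and 0.14. Msr1, a scavenger receptor, lay just outside the threshold with a change of 2.90 (edgeR adjusted p = 0.0546). Clec4e, the receptor Mincle, was at 1.53, 16.1, 4.97 and 4.59 normalised CPM in the controls and at 192, 28.4 and 57.5 in silica. Spread within both groups was wide, and its change of 3.76 ± 0.86 was not called (edgeR adjusted p = 0.168). Marco, a scavenger receptor of alveolar macrophages, was at 12.8 to 17.4 in the controls and at 28.8, 91.4 and 64.2 in silica (2.04 ± 0.37, edgeR adjusted p = 0.0891). Mrc1, the mannose receptor, had a change of 0.48 (edgeR adjusted p = 0.609).

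Chemokines for monocytes and T cells were among the genes that rose. Ccl9 was at 27.8, 37.2, 39.0 and 32.0 normalised CPM in the controls and at 205, 182 and 264 in silica 1, 2 and 7. Ccl6, its neighbour on chromosome 11 at 9.2 kb, was at 117, 211, 154 and 200 normalised CPM in the controls and at 940, 966 and 1103 in silica. Both bind the receptor Ccr1, and both had narrow groups with no overlap. Ccl9 rose by 2.67 ± 0.24 and Ccl6 by 2.56 ± 0.29 (edgeR adjusted p = 0.00716 and 0.0131). Ccr1 itself was at 8.67, 8.97, 10.9 and 8.63 normalised CPM in the controls and at 40.8, 40.9 and 48.0 in silica. Its rise was 2.21 ± 0.22 (edgeR adjusted p = 0.00973). Control 4 was the highest control and still 3.72 times below the lowest silica library.

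Cxcl9 and Cxcl10, interferon-induced ligands of Cxcr3, a chemokine receptor of T cells, lie 18.6 kb apart on chromosome 5. Cxcl9 was at 2.93, 3.95, 2.49 and 2.52 normalised CPM in the controls and at 97.5, 25.3 and 55.4 in silica 1, 2 and 7. Cxcl10 was at 1.53, 2.74, 5.26 and 3.01 in the controls and at 33.7, 28.8 and 29.9 in silica. The silica libraries were level for Cxcl10 and spread for Cxcl9, with silica 2 lowest for both. They rose by 4.32 ± 0.46 and 3.29 ± 0.39 (edgeR adjusted p = 0.0114 and 0.0178). Cxcl10 overlaps exons of Art3 on the opposite strand.

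Promoter windows of this pair are shown because the 2 genes rose together and hold the same 3 motifs. They are RefSeq windows on GRCm38.p6 as above, both read 5′ to 3′ on the minus strand, Cxcl9 at chr5:92328030-92328329 and Cxcl10 at chr5:92348840-92349139. Capitals mark, from left to right, the core of the interferon-stimulated response element (ISRE) searched as GAAANNGAA, the NF-kB core searched as GGGANNTTC and the AP-1 core TGANTCA, each read on both strands.
Cxcl9: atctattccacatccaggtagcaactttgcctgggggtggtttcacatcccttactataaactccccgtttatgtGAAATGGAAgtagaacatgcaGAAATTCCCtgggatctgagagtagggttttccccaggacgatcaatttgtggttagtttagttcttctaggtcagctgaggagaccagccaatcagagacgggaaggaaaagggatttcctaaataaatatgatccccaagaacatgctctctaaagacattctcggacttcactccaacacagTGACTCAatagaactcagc
Cxcl10: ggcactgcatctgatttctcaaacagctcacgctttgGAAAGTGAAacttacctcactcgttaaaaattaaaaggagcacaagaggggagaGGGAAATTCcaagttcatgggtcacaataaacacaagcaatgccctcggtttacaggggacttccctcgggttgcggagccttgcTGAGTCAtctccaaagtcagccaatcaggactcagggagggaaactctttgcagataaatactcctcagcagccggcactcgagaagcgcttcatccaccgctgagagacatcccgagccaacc
The 3 motifs start at bases 76, 97 and 282 of the Cxcl9 window and at bases 38, 92 and 177 of the Cxcl10 window.

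RefSeq windows were matched for 33 of the 40 higher genes, using the first listed start of each. The NF-kB letters were in 3 of the 33 (9.1%, against 3.7% of 11504 tested genes with a window and 3.9% of all 27025 windows), namely Cxcl9, Cxcl10 and AA467197. ISRE letters were in 8 of 33 (24.2%, against 7.5% and 8.6%), among them Clec4d, Saa3 and Ms4a7. The AP-1 letters were in 8 (24.2%, against 5.3% and 7.9%), among them Il1rn, Ccl9, Gpnmb and Cd68. PU.1 letters were in 11 (33.3%, against 13.5% and 13.5%) and C/EBP letters in 8 (24.2%, against 8.7% and 10.8%). The STAT element GAS, searched as TTCNNNGAA, was in 2 (6.1%, against 7.0% and 8.5%) and the E-box CACGTG in 1 (3.0%, against 9.7% and 7.2%). A match describes letters in these windows and no bound site.

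Of 26 chemokine genes tested, 5 were called higher (against 0.243% of all genes) and 0 lower, and 15 were higher without overlap (against 5.97%), with a list median of 1.74. The fifth was Ccl2, the main monocyte chemokine, at 1.02, 0.608, 1.44 and 1.83 normalised CPM in the controls and at 6.22, 11.8 and 14.8 in silica 1, 2 and 7. Silica 1 was lowest. Ccl2 rose by 3.15 ± 0.47 (edgeR adjusted p = 0.0484). Neutrophil chemokines were spread within the silica group. Cxcl3 was at 0.0638 to 0.395 normalised CPM in the controls and at 12.6, 2.62 and 49.4 in silica, with a change of 6.36 ± 1.01 (edgeR adjusted p = 0.0582). Cxcl5 was at 0.143 to 1.04 in the controls and at 3.49, 6.19 and 11.8 in silica (3.70 ± 0.69, edgeR adjusted p = 0.0900). Ccl3 was at 1.02, 1.42, 3.92 and 1.38 in the controls and at 10.7, 13 and 49.5 in silica (3.64 ± 0.68, edgeR adjusted p = 0.0925). Silica 7 was the highest library for all 4 of these genes, and the chemokine list median stood at 2.28 there, against 1.49 and 1.34 in silica 1 and 2. Cx3cl1, an endothelial chemokine, was lower in every silica library than in any control, with a change of -0.66 (edgeR adjusted p = 0.368).

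Among IL-1 genes the antagonist was the one called. Il1rn, which blocks the IL-1 receptor, was at 5.67, 8.97, 10.8 and 7.2 normalised CPM in the controls and at 77.9, 62.8 and 72.7 in silica 1, 2 and 7. The silica libraries were level and all high. Il1rn rose by 3.12 ± 0.28 (edgeR adjusted p = 0.00716). Il1r2, the decoy receptor, was at 1.27 to 1.78 in the controls and at 3.39, 10.9 and 12.4 in silica (2.48 ± 0.46, edgeR adjusted p = 0.0923). Il1a was at 0.892 to 4.39 in the controls and at 20.8, 10.4 and 38.8 in silica (2.96 ± 0.58, edgeR adjusted p = 0.101). Il1b overlapped, with 9.75, 14.4, 28.4 and 16.8 normalised CPM in the controls and 16.9, 77.9 and 65.9 in silica (1.62 ± 0.53, edgeR adjusted p = 0.355). Nlrp3, the inflammasome sensor, had a change of 1.98 ± 0.57 (edgeR adjusted p = 0.272), and its highest control, control 4 at 8.18, was close to silica 2 at 10.6. In all, 1 of 20 inflammasome and IL-1 genes was called, against 0.243% of all genes, with a median of 0.81. Higher without overlap were 7 of 20, against 5.97% of all genes. Of 20 NF-kB feedback and TNF genes 0 were called, while all 20 had a positive change and 11 were higher without overlap, against 5.97% (median 0.71). Tnfrsf9, an inducible TNF receptor of activated T cells and known as 4-1BB, was at 1.98 to 3.40 normalised CPM in the controls and at 19.2, 13.2 and 21 in silica. It rose by 2.77 ± 0.31 (edgeR adjusted p = 0.0125).

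Of 14 acute-phase and iron-binding genes tested, 3 were called higher (Lcn2, Saa3 and Orm1), against 0.243% of all genes, and 10 of 14 were higher without overlap, against 5.97%. Lcn2, a lipocalin that binds bacterial iron carriers, was at 209, 126, 116 and 197 normalised CPM in the controls and at 932, 1061 and 1375 in silica 1, 2 and 7. Control 1 and silica 7 were the highest of their groups. Lcn2 rose by 2.79 ± 0.32 (edgeR adjusted p = 0.0149). Saa3, a serum amyloid A made in tissue, was at 23.6, 4.41, 4.02 and 8.63 in the controls and at 302, 151 and 364 in silica. Control 1 was the highest control and 6.39 times below the lowest silica library. Saa3 rose by 4.75 ± 0.69 (edgeR adjusted p = 0.0468). Orm1, which encodes a plasma carrier protein, rose by 3.37 ± 0.51 (edgeR adjusted p = 0.0492), and its near copy Orm2, from 0 to 0.383 normalised CPM in the controls and 1.28 to 3.03 in silica, was not called. Itih4, an inhibitor heavy chain of the acute phase, rose by 2.04 ± 0.27 (edgeR adjusted p = 0.0308). The list median was 1.80, and 1 of the 14, the iron hormone gene Hamp, had a negative change (-0.95). Hp, haptoglobin, overlapped, with 616 normalised CPM in silica 1 and 3766 in silica 7 against 745 to 1456 in the controls.

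The called complement genes encode the first component. C1qc was at 33.8, 28.2, 35.3 and 34.8 normalised CPM in the controls and at 113, 122 and 131 in silica 1, 2 and 7. C1qb, 3.6 kb away on chromosome 4, was at 51.2, 32.6, 43.4 and 44.2 in the controls and at 147, 141 and 167 in silica. Both genes encode chains of C1q, which macrophages make, and for both the libraries within a group were close together. C1qc rose by 1.89 ± 0.20 and C1qb by 1.82 ± 0.23 (edgeR adjusted p = 0.0114 and 0.0196). The remaining chain, C1qa, had a change of 1.35 with no overlap and was not called (edgeR adjusted p = 0.324). C3ar1, the receptor for C3a, was at 5.36 to 7.84 in the controls and at 46.0, 26.8 and 19.8 in silica, and lay just outside the threshold (2.15 ± 0.33, edgeR adjusted p = 0.0535). Cfb, factor B of the alternative pathway, had a change of 2.19 (edgeR adjusted p = 0.0546). Of 19 complement genes tested, 2 were called, against 0.243% of all genes, 7 were higher without overlap, against 5.97%, and the median was 0.72. C3 itself had a change of 0.72 and C4b of -0.31.

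Further called genes encode surface proteins of myeloid cells. Ms4a7 was at 10.3, 6.44, 6.22 and 5.87 normalised CPM in the controls and at 56.8, 26.1 and 31.8 in silica 1, 2 and 7. Control 1 stood apart above the other controls, and silica 1 above the other silica libraries. Ms4a7 rose by 2.41 ± 0.35 and its relative Ms4a6d by 2.33 ± 0.33 (edgeR adjusted p = 0.0468 and 0.0465). Cd300lf, an inhibitory receptor of myeloid cells, rose by 2.28 ± 0.33 (edgeR adjusted p = 0.0468). Lilrb4b, an inhibitory immunoglobulin-like receptor, was at 8.39 to 14.2 in the controls and at 107, 38.6 and 181 in silica, and rose by 3.35 ± 0.49 (edgeR adjusted p = 0.0468). Reads of Lilrb4b may be shared with close relatives and with the overlapping gene Gm49339, so its level is uncertain. Of 20 monocyte and interstitial macrophage genes, 3 were called, against 0.243% of all genes: Ms4a7 and the secreted C1q chains C1qb and C1qc. Higher without overlap were 10 of 20, against 5.97% of all genes (median 1.12). Ms4a6d, Cd300lf and Lilrb4b are on none of the lists. Dendritic cell genes had 1 call in 17, Tnfrsf9 (median 0.51), with 7 higher and 0 lower without overlap. Alveolar macrophage genes had 1 call in 19, Ctsk (median 0.36), with 6 higher and 1 lower without overlap. Over all genes, 0.243% were called higher, and 5.97% were higher and 4.9% lower without overlap.

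Ly6i, a surface protein of the Ly6 family, was at 7.71, 12.9, 6.22 and 8.44 normalised CPM in the controls and at 120, 211 and 233 in silica 1, 2 and 7, and rose by 4.41 ± 0.36 (edgeR adjusted p = 0.00716). Wfdc17, a small secreted protein of activated macrophages, was at 11.9, 5.93, 7.60 and 11.7 in the controls and at 90.1, 102 and 112 in silica, and rose by 3.45 ± 0.31 (edgeR adjusted p = 0.00716). The silica libraries were level for Wfdc17, and silica 1 was the lowest for Ly6i. Ear6, an eosinophil-associated ribonuclease, was at 0.0956 to 0.253 in the controls, from 14 counts in all 4, and at 2.53, 9.70 and 11.3 in silica. It rose by 5.36 ± 0.63 (edgeR adjusted p = 0.0166). Ly6i and Ear6 belong to families of near-identical genes, so the split of reads among relatives is uncertain. Eosinophil, basophil and mast cell genes as a list had 0 of 10 called and a median of -0.48, with Prg2, the eosinophil major basic protein, at 13.4 in silica 1 but at 0.836 and 1.29 in silica 2 and 7.

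Enzymes of macrophage metabolism included the gene with the highest called fold change. Acod1, which makes itaconate, was at 0.255, 1.67, 0.717 and 0.148 normalised CPM in the controls and at 74.9, 11.6 and 82.6 in silica 1, 2 and 7. Silica 2 was well below the other two silica libraries and 6.93 times above the highest control. Acod1 rose by 6.31 ± 0.93 (edgeR adjusted p = 0.0476), and the control level rests on 55 counts. Hk3, the hexokinase of myeloid cells, was at 2.37 to 5.07 in the controls and at 26.3, 15.6 and 15.5 in silica, and rose by 2.49 ± 0.37 (edgeR adjusted p = 0.0476). It shares exon sequence with Unc5a on the opposite strand. AA467197, which hosts the microRNA gene Mir147, was at 6.50, 2.58, 2.63 and 3.01 in the controls and at 57, 18.7 and 38.3 in silica, and rose by 3.37 ± 0.48 (edgeR adjusted p = 0.0468). Also called were Basp1 and Arl11, a membrane-bound signalling protein and a small GTPase. They rose by 1.98 ± 0.27 and 1.89 ± 0.23 (edgeR adjusted p = 0.0371 and 0.0193). Slc7a11, the cystine transporter of the antioxidant response, had a change of 3.26 ± 0.66 that was not called (edgeR adjusted p = 0.110), with 77.8 normalised CPM in silica 1 against 13 and 27.0 in silica 2 and 7.

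Called genes that are typical of epithelium were few, and those given here are Clca1 and Slc26a4. The cell type of Slc39a2 and Mab21l3, also given here, was not examined. Clca1, a protein secreted by goblet cells, was at 0.510, 0.912, 0.478 and 0.247 normalised CPM in the controls and at 14.5, 9.09 and 8.63 in silica 1, 2 and 7. The lowest silica library was 9.46 times above the highest control, from 41 counts in the 4 controls. Clca1 rose by 4.30 ± 0.48 (edgeR adjusted p = 0.0125). Slc26a4, the anion exchanger pendrin of airway epithelium, was at 1.85, 2.69, 2.34 and 2.76 in the controls and at 21.4, 13.4 and 15.2 in silica, and rose by 2.79 ± 0.30 (edgeR adjusted p = 0.0114). Slc39a2, a zinc importer, was at 1.40, 1.17, 1.10 and 1.68 in the controls and at 9.56, 16.4 and 12.7 in silica, and rose by 3.26 ± 0.33 (edgeR adjusted p = 0.00973). Mab21l3 rose by 3.24 ± 0.44 at a low level, 0.191 to 0.444 in the controls and 2.69 to 3.59 in silica (edgeR adjusted p = 0.0364). Slc39a2 shares exon sequence with Mettl17 on the same strand, and Mettl17 was not called. Of 14 goblet and mucus genes 1 was called, against 0.243% of all genes, all 14 had a positive change and the median was 1.58. Higher without overlap were 6 of 14, against 5.97% of all genes. Muc5ac, the gel mucin of goblet cells, had a change of 2.23 with no overlap (edgeR adjusted p = 0.247). Within the zinc transporters and metallothioneins, Slc39a2 was the 1 call in 13, against 0.243% of all genes, and the list median was 0.09. Without overlap 2 of 13 were higher and 2 lower, against 5.97% and 4.9% of all genes.

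The called gene that fell was Colq, which encodes the collagen-like tail anchoring acetylcholinesterase. Its levels were 18, 19.7, 19.2 and 17.2 normalised CPM in the controls and 6.98, 4.79 and 6.11 in silica 1, 2 and 7. Both groups were tight and far apart, at 18.5 ± 1.13 (SD, n = 4) and 5.96 ± 1.10 (SD, n = 3). Colq fell by 1.63 ± 0.25 (edgeR adjusted p = 0.0492). It shares exon sequence with Gm49387 on the same strand. The 41st called gene, the predicted gene Gm49369, rose by 2.74 and overlaps Ctsd and Ifitm10, so its reads may belong to Ctsd.

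Genes of the mesothelium, the cell sheet that covers the lung, were lower in silica without a single call. All 12 had a negative change with a median of -2.19, and 10 of 12 had every silica library below every control, against 4.9% of all genes. Upk3b, a uroplakin of mesothelial cells, was at 79.8, 31.2, 73.2 and 79.0 normalised CPM in the controls and at 5.67, 0.502 and 8.46 in silica 1, 2 and 7. Silica 2 was the lowest library and control 2 the lowest control. The change was -3.75 ± 0.82 (edgeR adjusted p = 0.147). Upk1b, a second uroplakin gene, had a smaller change and a smaller p (-1.355 ± 0.22, edgeR adjusted p = 0.0616). Lrrn4 was at 7.71, 6.74, 22.5 and 12 in the controls and at 1.06, 0.112 and 1.18 in silica (-3.95 ± 0.77, edgeR adjusted p = 0.101). Aldh1a2, which makes retinoic acid, was at 11.6 to 24.1 in the controls and at 5.11, 4.51 and 5.32 in silica (-1.92 ± 0.33, edgeR adjusted p = 0.0754). Wt1, the transcription factor of mesothelium, was at 0.71 to 2.37 in the controls and at 0.405, 0 and 0.504 in silica (-2.46 ± 0.90, edgeR adjusted p = 0.416). Krt19, which airway epithelium shares, had a change of -0.18. Cardiac muscle genes, a sign of attached heart or pulmonary vein tissue, had a negative median as well (-1.24), with 0 of 13 called. But 1 of 13 lay below without overlap, a share (7.69%) near the 4.9% of all genes. Cardiac list medians in the controls ran from -0.92 to 1.09 and in silica from -2.18 to -0.35. The part of cardiac tissue in the mesothelial difference was not tested.

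Endothelial, alveolar type 1 and fibroblast lists had negative medians, with 0 called in each. Of 18 endothelial genes 17 had a negative change (median -0.90), and 6 lay below without overlap, against 4.9% of all genes. Plvap, a protein of capillary fenestrae, was at 539, 244, 368 and 280 normalised CPM in the controls and at 88.9, 206 and 118 in silica 1, 2 and 7 (-1.38 ± 0.40, edgeR adjusted p = 0.272). Ednrb, an endothelin receptor of lung capillaries, was at 88.1 to 134 in the controls and at 26.3, 65.3 and 35.9 in silica (-1.36 ± 0.36, edgeR adjusted p = 0.228). Silica 2 was the silica library nearest to the controls for both genes. Alveolar type 1 genes had a median of -0.71, with 12 of 13 negative, but 1 of 13 lay below without overlap, a share (7.69%) near the 4.9% of all genes. Fibroblast genes were divided, with 11 of 17 negative and 6 positive (median -0.63). Lower without overlap were 6 of 17, against 4.9% of all genes, among them the lung fibroblast factors Tcf21 and Fgf10, while the highest, the microfibril gene Mfap5, had a change of 0.51. Alveolar type 2 genes were near the level of all genes, with 0 of 17 called and a median of -0.16. Sftpd, a surfactant collectin, differed from that list with a change of 1.44 ± 0.38 (edgeR adjusted p = 0.236).

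Collagen and plasma cell genes stood apart in silica 1. The 28 collagen and matrix genes had 0 calls and a median of 0.25, and the list median per library was 1.05 in silica 1 and -0.07 and -0.32 in silica 2 and 7, against -0.30 to 0.60 in the controls. Col1a1 was at 97.6, 63.5, 187 and 112 normalised CPM in the controls and at 337, 146 and 72.4 in silica. Col3a1 was at 121, 111, 256 and 223 in the controls and at 803, 307 and 267 in silica, with a change of 1.37 ± 0.47 (edgeR adjusted p = 0.383). Fibronectin, Fn1, was at 1034 in silica 1 and at 165 and 183 in silica 2 and 7, inside the control range of 132 to 451. Without silica 1 the change of Col1a1 was -0.072 and that of Fn1 -0.42, against 0.69 and 0.99 with it. Acta2, the smooth muscle actin of myofibroblasts, had a change of 0.12 ± 0.50 and Tgfb1 of 0.20 ± 0.23. Plasma cell genes and immunoglobulin constant regions had 0 of 18 called, with a list median of 2.21 in silica 1 and of -0.39 and -0.28 in silica 2 and 7. The 123 immunoglobulin variable segments tested, 347 to 501 bases long, also had 0 calls, although 118 had a positive change and the median was 2.35. Together they took 7761 normalised CPM in silica 1, 519 and 660 in silica 2 and 7, and 103, 1116, 309 and 894 in the controls.

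Neutrophil genes showed the opposite split. All 15 tested had a positive change (median 1.66), but the list median was 2.27 and 1.93 in silica 2 and 7 and 0.02 in silica 1, inside the control range of -0.31 to 0.52. Lcn2 was the 1 call of that list, against 0.243% of all genes called higher. Higher without overlap were 3 of 15, against 5.97% of all genes. Cell cycle genes were higher in all 3 silica libraries without a call at this threshold. All 24 had a positive change with a median of 1.39, and 20 of 24 had no overlap, against 5.97% of all genes. Cdk1, the kinase that drives mitosis, was at 4.65, 2.94, 4.40 and 5.48 normalised CPM in the controls and at 16.8, 13.2 and 14.9 in silica (1.77 ± 0.29, edgeR adjusted p = 0.0616). Interferon response genes were all positive too (24 of 24, median 0.82), with 0 called and 6 without overlap, against 5.97% of all genes. T and NK cell genes had a median of 0.04 and list medians of 0.03 to 0.11 in the silica libraries, and the median changed sign in 3 of 23 alternatives (-0.17 to 0.16). B cell genes had a median of 0.10, but the list was at 0.82 in silica 1, -0.93 in silica 2 and -0.0015 in silica 7, against -0.39 to 0.66 in the controls, and its median ran from -0.66 to 0.47 over the alternatives, with a change of sign in 4 of 23.

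**Figure D2:**
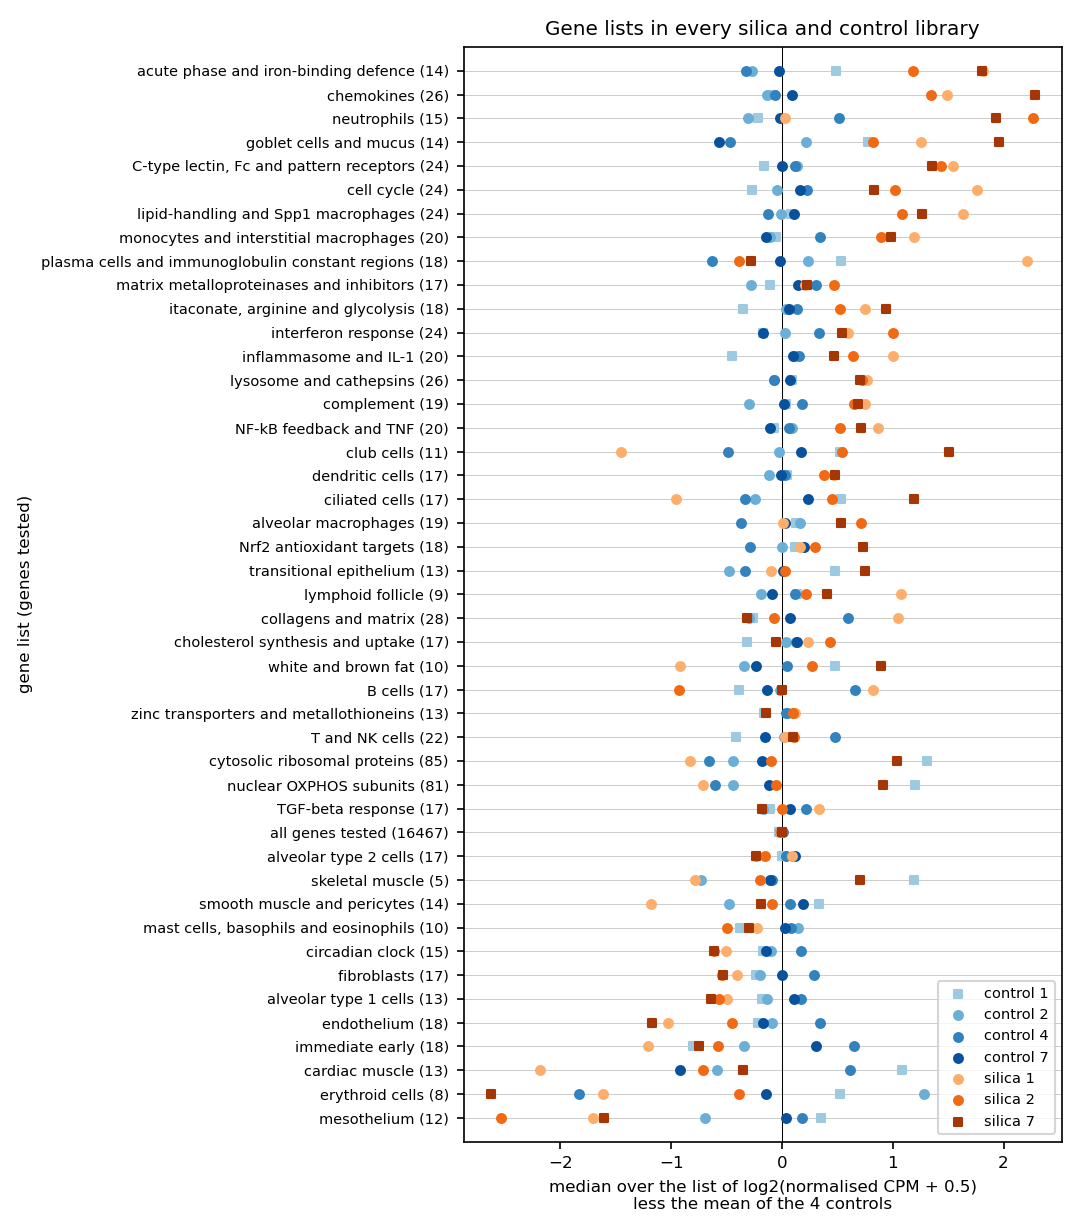
Median over each gene list of log2(normalised CPM + 0.5) less the mean of the 4 controls, for each of the 7 libraries, with the number of genes tested in parentheses (blue for control, orange for silica, squares for control 1 and silica 7). The 3 orange points are together for lectin and pattern receptors (1.35 to 1.54) and apart for plasma cells, where silica 1 is at 2.21, and for neutrophils, where it is at 0.02.

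Clock genes lay on both sides of the controls, with 0 of 15 called. Per1 was at 191, 106, 141 and 114 normalised CPM in the controls and at 54.2, 57 and 70.5 in silica 1, 2 and 7 (-1.19 ± 0.27, edgeR adjusted p = 0.165). Hlf, an output factor of the clock, was at 44.1 to 85.9 in the controls and at 21.4, 24.3 and 14.7 in silica (-1.50 ± 0.33, edgeR adjusted p = 0.148). With Per1 and Hlf, the genes Ciart, Nr1d1, Tef, Cry2 and Per2 lay below every control in all 3 silica libraries, and Npas2, Bhlhe40 and Arntl above. These were 7 of 15 below and 3 of 15 above, against 4.9% and 5.97% of all genes. The labels used here give no hour of collection. Of 18 immediate early genes, which respond within minutes to handling, 0 were called and 15 had a negative change, with a median of -0.94. Lower without overlap were 3 of 18 and higher 2 of 18, against 4.9% and 5.97% of all genes. The list median was -0.80 in control 1, inside the silica range of -1.21 to -0.58, and -0.35 to 0.65 in the other controls. Dusp1 was at 155 to 539 in the controls and 58.7 to 184 in silica.

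Each call was set against gene length, because control 1 and silica 7 held fewer counts from long genes than the other libraries. Across genes, the deviation of a library from the mean of the 7 libraries correlated with log2 length at r = -0.245 in control 1 and -0.503 in silica 7. In the other 5 libraries r was -0.05 to 0.50, and the points share a library and are not independent. The fold change itself had r = -0.153 with length across genes. With the tested genes cut by length into 10 classes of like size, the median fold change went from 0.07 in the shortest class to -0.13 in the longest. The 40 higher genes had a median length of 1497 bases, against 2720 bases for all tested genes, and 10 of 40 were longer than 2720. Calls per class, from short to long, were 10, 10, 5, 3, 2, 6, 5, 0, 0 and 0, so no gene longer than 3800 bases was called. The nearest long gene outside the threshold was Lhfpl2, of 4209 bases, at 5.10 to 6.79 normalised CPM in the controls and at 120, 40.8 and 24.1 in silica 1, 2 and 7 (3.35 ± 0.51, edgeR adjusted p = 0.0535).

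**Figure D3:**
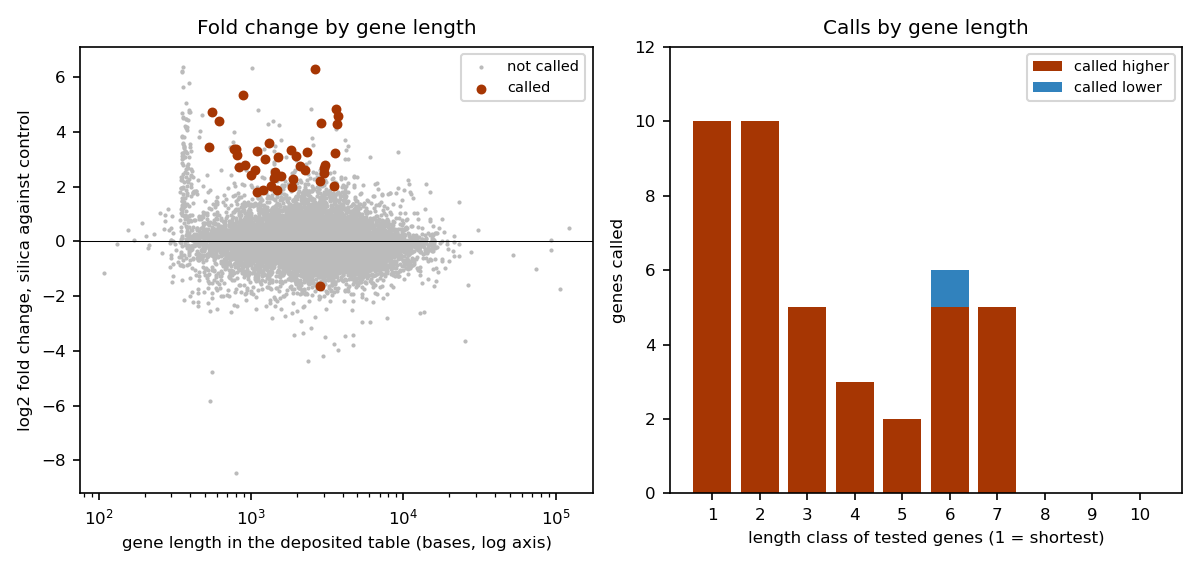
Left, log2 fold change of each tested gene by its length in the deposited table (bases, log axis), with called genes in red; the column of grey points at the left, near 350 bases, holds immunoglobulin variable segments. Right, number of called genes in each of 10 classes of the tested genes by length, with 10 in each of the 2 shortest classes and 0 in the 3 longest.

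The fold changes were then set beside the length trend. Less the median of its own length class, the change of the 40 higher genes was at least 1.77, with a median of 2.85. These genes were picked for their change in the same libraries, so this is a description. With an offset for length in each library, edgeR called 77 genes (69 higher and 8 lower), 34 of the 41 among them. The 6 named genes that lost the call were Fcgr3, Cxcl10, Ms4a6d, Cd300lf, Cd68 and Orm1, with adjusted p from 0.0518 to 0.131. With the length slope of each library as a covariate it called 427 genes (349 higher and 78 lower), with all 41 among them. There 14 of the 24 cell cycle genes were higher and 6 of the 12 mesothelial genes lower, and with the offset 0 and 3. Within the 5 libraries with more counts from long genes (silica 1 and 2 against control 2, 4 and 7) 41 of 16655 genes were called, 30 of them shared, and the median change of the 40 genes was 2.85. Between the 2 libraries with few such counts, silica 7 lay above control 1 by a median of 2.97 over the 40 genes. This is 1 library on each side and has no test. Its direction is no check, since every silica library was above every control for these genes. The part of length in calls near the threshold was not tested beyond these fits.

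Each call was also set against every single library. Without control 1, 2, 4 or 7 edgeR called 24, 3, 8 and 1 genes, and without silica 1, 2 or 7 it called 37, 21 and 28. Mmp12 was called in all 7 of these fits, with changes from 4.70 to 4.93 and a highest adjusted p of 0.0240. Ly6i and Wfdc17 were called in 6, missing without control 7 (adjusted p = 0.0664 for both), and Il1rn, Ccl9, Ccr1 and Clec4n in 5. Of the 41 genes, 8 were called in none: Basp1, Ms4a6d, Cd300lf, Ms4a7, Hk3, Mab21l3, Gm49369 and Colq. Fold changes moved less than the calls. Over all 41 genes and 7 fits they stayed between 0.763 and 1.18 times their value with 7 libraries. Gpnmb had the widest range of these in absolute terms among the genes described, from 3.49 to 4.99, the lower value without silica 1. Silica 1 was the highest silica library for 23 of the 40 genes, silica 7 for 15 and silica 2 for 2.

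**Figure D4:**
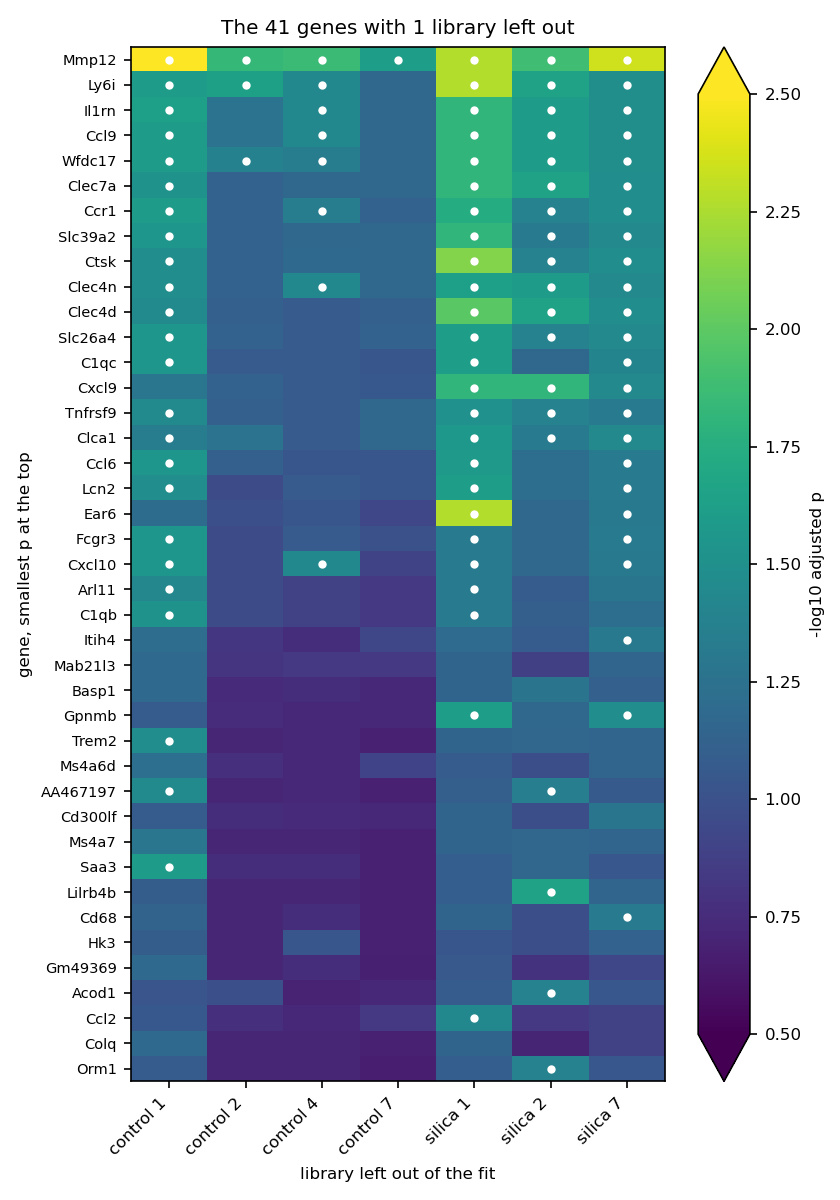
Adjusted p (as -log10, edgeR) of the 41 genes when 1 library is left out, with the library left out on the horizontal axis, genes by p from top to bottom and a white dot where the gene is called. Mmp12 has a dot in all 7 columns, and the columns without control 2, 4 and 7 hold 3, 8 and 1 dots.

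Neighbouring genes were called together. Within 200 kb of another called gene lay 11 of the 41 called genes, while 1.61% of 16238 placed tested genes had a called gene that near. These were Ccl6, Ccl9 and Wfdc17 on chromosome 11, Clec4n and Clec4d on chromosome 6, Cxcl9 and Cxcl10 on chromosome 5, C1qb and C1qc on chromosome 4, and Ear6 and Slc39a2, 38.2 kb apart, on chromosome 14.

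The 40 higher genes were then read in the 8 libraries outside the fit, without a test. In silica_DMSO 2 and 5 their median lay 1.92 and 3.38 above the control mean (log2), with 40 and 39 of 40 above the highest control. DMSO libraries, which had no silica by their labels, were unlike each other, with medians of 1.24 in DMSO 1, 2.88 in DMSO 4 and -0.07 in DMSO 6, and 35, 37 and 6 of 40 genes above the highest control. These libraries also differed in the level of long genes. Genes over 3000 bases took 23.67%, 12.39% and 35.85% of counts in DMSO 1, 4 and 6, and 40.04% and 11.46% in silica_DMSO 2 and 5. The part of gene length in these medians was not tested. Genes differed in their level in the DMSO libraries. Mmp12, scaled over all 15 libraries, was at 16.9, 12.6 and 6.74 normalised CPM in DMSO 1, 4 and 6 and at 192 to 253 in silica. Slc26a4 was at 5.70, 2.36 and 1.67 in the same DMSO libraries and at 12.4 to 19.8 in silica. Clca1, by contrast, was at 29.8, 117 and 2.80 in DMSO 1, 4 and 6 and at 7.97 to 13.4 in silica. Lcn2 was at 373, 1889 and 129 in these DMSO libraries and at 861 to 1270 in silica. Colq was at 6.97, 1.94 and 15.9 in DMSO 1, 4 and 6, against 4.43 to 6.45 in silica and 15.9 to 18.2 in the controls. The libraries DMSO 7, silica_DMSO 4 and silica_DMSO 6 hold thymus RNA, with Rag1 at 2541 to 3876 CPM, and had medians of -0.55, 0.48 and 0.20.

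**Figure D5:**
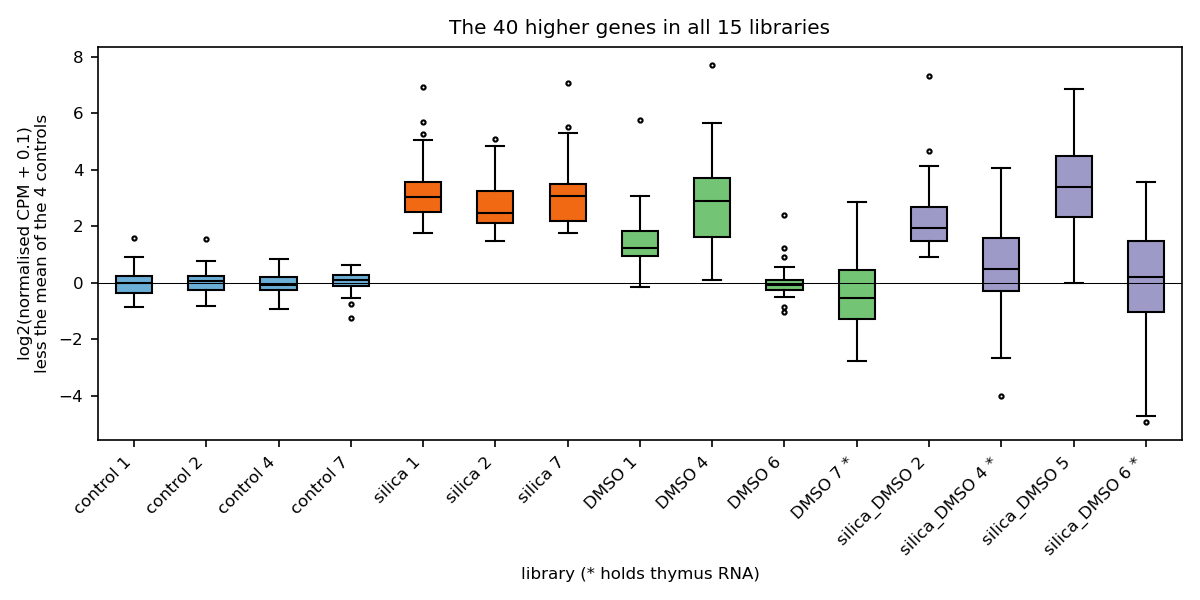
Box plots, 1 for each of the 15 libraries, of log2(normalised CPM + 0.1) less the mean of the 4 controls over the 40 higher genes (line, median; box, quartiles; whiskers, to 1.5 times the box; points beyond). DMSO 4 has a median of 2.88, in the range of the silica libraries, and DMSO 6 one of -0.07; a star marks libraries with thymus RNA.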

How the data were processed

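RNA of mouse lungs was sequenced in 15 libraries, of which 7 are compared here. The authors deposited 2 gene tables. The deposited count table holds expected counts, of which 20.6% to 24.2% of values above 0 in the 7 libraries are not whole. TPM of the same genes were calculated by the authors and form the second table. Each table adds the length of the gene, an other value deposited by the authors, and both hold 8 columns of the authors' group means that were not used. Bowtie 0.12.2 and the build mm8 are named in the submitters' processing notes. How counts were estimated, and whether by strand, is not given in these sources.

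Rounding to whole counts moved the library totals by 53.9 or less. Low genes were removed by filterByExpr of edgeR (smallest count 10, smallest total 15), libraries were scaled by TMM, and silica was compared with control by edgeR's robust quasi-likelihood F test, adjusted by Benjamini and Hochberg over all 16467 genes. Fold changes are log2 with their SE. No 2 libraries of a group agree within sampling noise (lowest chi-square per degree of freedom 36.9). Depth of 17434649 to 20829960 counts per library sets the precision of low genes.

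Members and the 46 gene lists were chosen with earlier results of these data known, and lists got no set test. The named genes are all called genes (at most 60) except predicted ones, and the 12 lowest and 12 highest changes among uncalled genes with no overlap and at least 1 normalised CPM. To these were added the 3 genes with the smallest p from each list, and 12 genes of fibrosis and inflammation. Not all named genes are described in the text, and those left out include Timp1, Tnf and Il6. Other list members given were chosen after their values were seen. Gene positions and exon overlaps are from GENCODE M21 and promoters from RefSeq (GRCm38.p6). Alternatives were other size factors, DESeq2, limma-voom (quality weights), limma's trend method for log2 TPM (pseudocount 1 or 0.1), other filters and thresholds, a replicate block, all 15 or 12 libraries, length corrections and leaving out each library. Tools were R 4.3.3, edgeR 4.0.16, limma 3.58.1, DESeq2 1.42.0, data.table (version 1.17.8), Python 3.11.15, pandas 2.3.3 and matplotlib 3.10.9.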

Additional observations from a re-analysis of the deposited data

Results flagged for a closer look

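Among the 176 named genes, 14 had 1 control library far from the other 3, by Dixon's gap criterion, which chance meets in about 1 in 20 groups. Control 4 stood at 11 normalised CPM for Ccr1 and at 8.75 for Clec4n, and control 1 at 6.50 for AA467197 and at 10.3 for Ms4a7. Control 1 was also apart for Mmp19 (11.4), Cox4i2 (189) and Fabp4 (48.1). Control 4 was apart for Ccl3 (3.92), Rrm2 (8.66), Igtp (66.0), Smad7 (95.6) and Fn1 (451). Control 2 was apart for the mesothelial genes Upk3b (31.2) and Chst4 (2.18).

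In libraries outside the comparison, the 40 higher genes lay above the controls by a median of 1.24 in DMSO 1, 2.88 in DMSO 4, 1.92 in silica_DMSO 2 and 3.38 in silica_DMSO 5 (log2). The highest control, set against the other 3, reached 0.13. The DMSO 1 and DMSO 4 values came from lungs that received no silica by their labels. Genes over 3000 bases took 23.67% and 12.39% of counts in DMSO 1 and DMSO 4, and 40.04% and 11.46% in silica_DMSO 2 and 5. The part of gene length in these values was not tested.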

How the results depend on the processing

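The number of called genes (41, 40 higher and 1 lower) depended on the processing. DESeq2's own test called 459 (337 higher, 122 lower), limma-voom with quality weights 306 (255 and 51), and limma-trend on log2 TPM 8 (8 and 0) with a pseudocount of 1 and 7 (7 and 0) with 0.1. Without a filter on low counts there were 79 calls (77 and 2), at an adjusted p under 0.1 117 (106 and 11), and with a fold over 1.5 tested 21 (21 and 0). With all 15 libraries edgeR called 0 (0 and 0; 522 at an unadjusted p under 0.05), and with 12 libraries 2 (2 and 0). The offset for gene length gave 77 (69 and 8), the length slope 427 (349 and 78), and the libraries of 1 length class 41 (39 and 2). DESeq2 size factors in edgeR gave 39 (39 and 0). Leaving out 1 library gave 1 to 37 calls, 1 to 37 higher and 0 to 1 lower. Upper-quartile factors, a minimum of 1 CPM and a fit that was not robust gave 46, 41 and 44. None of the 40 named called genes changed direction under any of these settings, which refit the same silica and control libraries. Since the groups do not overlap for these genes, a change of direction was hardly possible, and this is no check.

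The replicate block, which left out control 4 because no silica library shares its number, called 0 genes (0 higher, 0 lower). There edgeR gave 759 genes at an unadjusted p under 0.05. With control 4 left out and no block, it called 8 genes. Silica and control libraries of the same number had deviations correlated at -0.403, -0.04 and 0.03. Pairs of different number ran from -0.502 (silica 7 with control 4) to 0.492 (silica 7 with control 1). Whether a shared number marks a batch or a pairing was not tested.

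Some uncalled genes changed sign. With limma-voom Prg2 was at -0.21, Fn1 at -0.018, Cd1d1 at -0.023 and Themis at -0.55. With limma-trend on TPM Dnai1 was at -0.32 and -0.36, Acta2 at -0.10 and -0.10, and Themis at -0.043 with the smaller pseudocount. With the length slope Fabp4 was at -0.055 and Acta2 at -0.36, and within 1 length class Adipoq was at -0.25 and Acta2 at -0.43. Leaving out 1 library, ranges that cross 0 were -0.66 to 2.13 for Prg2, -0.42 to 1.53 for Fn1, -0.072 to 1.08 for Col1a1, -0.12 to 0.57 for Cd1d1 and -0.73 to 0.48 for Themis, each lowest without silica 1, and -0.046 to 0.94 for Adipoq, -0.28 to 1.29 for Tnni2, -0.082 to 0.68 for Fabp4 and -0.51 to 0.51 for Acta2, each lowest without silica 7. The causes were not tested. Depth limits genes such as Ear6, with 14 counts over the 4 controls, Clca1 with 41 and Acod1 with 55.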
